A study of Mus musculus with 3 samples.

Results

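The report concerns 31 mouse genes of sterol and fatty acid synthesis and of its control by the sterol regulatory element binding proteins (SREBPs), read from a table of 46078 genes. The members were found by their symbols, and each of the 31 symbols had 1 row in the table. They fall into 7 genes of the mevalonate pathway, 10 of sterol synthesis from squalene synthase onward, 8 of fatty acid synthesis and desaturation, and 6 genes of regulation and sterol transport. RNA was sequenced from RAW 264.7 cells, a mouse macrophage line raised from a tumour that Abelson leukemia virus induced, grown in medium with serum. The 3 conditions were cells given 0.5 mM hydroxyurea (HU) together with gold nanocages, which are hollow gold particles, cells given 0.5 mM HU alone, and control cells. RNA was taken 12 hours after treatment. HU blocks ribonucleotide reductase, the enzyme that makes the building blocks of DNA. The dose of the nanocages is not given in the sources used here, and cells given nanocages without HU were not analysed here. Each condition was 1 library from 1 cell line, so no difference below has a replicate check and no test between conditions was possible.

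Cells make cholesterol from acetyl units through the mevalonate pathway and a long chain of sterol intermediates, and they make fatty acids from the same acetyl units. SREBP2 chiefly drives the sterol genes and SREBP1 chiefly the fatty acid genes. Both are made as precursors in the membrane of the endoplasmic reticulum, where SCAP escorts them to the Golgi for cleavage when sterols are scarce and INSIG proteins hold SCAP back when sterols are plentiful. Since this control acts on the SREBP proteins, the mRNA of Srebf1 and Srebf2 need not follow the activity of the factors. In macrophages the pathway also responds to cholesterol taken up from lipoproteins and from engulfed cells.

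The deposited read counts summed to 18644333 in HU plus gold nanocages, 20057329 in HU and 14990564 in control. All 8 macrophage markers examined, among them Lyz2, Csf1r and Cd68, had a mean of at least 1 FPKM (fragments per kilobase of exon, scaled to the summed count of the library). Their summed level was 2799, 2927 and 3053 FPKM in HU plus gold nanocages, HU and control. The sum was lower in both treated libraries, and Lyz2 was its largest part. Single markers did not all follow the sum. Cd14 was slightly higher in HU than in control, and Cd68 slightly higher with nanocages than in control. The part of these markers in the differences below was not tested. Of the 24 markers of T cells, B cells, fibroblasts, epithelium and liver, and adipocytes, none had a mean of 1 FPKM, 17 had no read in any library, and the highest single value was 0.59 FPKM. Scaling the libraries by other methods moved no log2 ratio by more than 0.00515.

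The fatty acid genes spanned the highest and the lowest levels of the 31, and the sterol genes lay between. Fads2, the delta-6 desaturase of polyunsaturated fatty acids, ranked highest of the 31 in every library, at 110.47 FPKM in HU plus gold nanocages, 112.41 FPKM in HU and 104.49 FPKM in control. Srebf2, which encodes SREBP2, came next at 77.96, 78.38 and 81.11 FPKM in the same libraries, followed by the stearoyl-CoA desaturase gene Scd2 at 69.2, 70.0 and 78.65 FPKM. Scd1, its close relative, ranked lowest in all 3 libraries, at 1.46, 1.41 and 1.66 FPKM, resting on 132, 137 and 120 reads. Thus Scd2 stood 47.4-fold, 49.6-fold and 47.4-fold above Scd1 per exon length in HU plus gold nanocages, HU and control. All 31 genes had a mean of at least 1 FPKM and 29 had at least 5 FPKM.

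**Figure D1:**
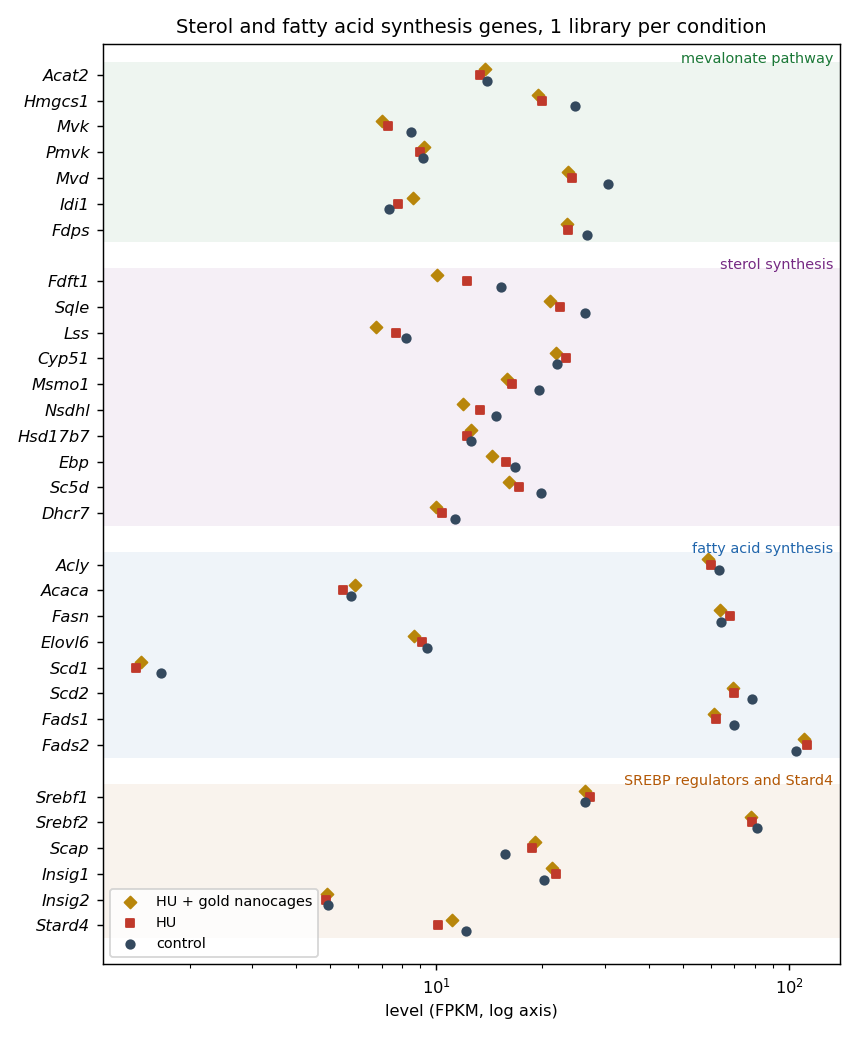
Level of each of the 31 genes (horizontal log axis, FPKM) in HU plus gold nanocages (diamonds), HU (squares) and control (circles), grouped by role, with 1 library per condition. Control lies to the right of both treated libraries for Hmgcs1, Mvd, Fdft1 and Sqle, and to their left for Scap.

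HU against control asked how the drug alone relates to these genes. Genes of the mevalonate and sterol branches were mostly lower in HU by small amounts, fatty acid genes were mixed, and the SREBP genes themselves were near equal. Ratios are of CPM, the reads of a gene scaled by the summed count of its library, with exact 95% intervals from the reads of both libraries that cover counting error only. The 4 members at least 1.2-fold lower in HU were Mvd (1.26-fold), Fdft1 (1.25-fold), Hmgcs1 (1.24-fold) and Stard4 (1.2003-fold), and none was 1.2-fold higher. Stard4 lay at the edge of this call and passed it no longer with edgeR's TMM factors (0.836-fold), without the 50 most abundant genes in the library sum, or with a pseudocount of 0.1 or 1 FPKM, which left 3 members. Among 10846 genes with a mean of at least 1 FPKM, 11.6% were 1.2-fold lower and 13.1% higher, so 4 of 31 is near that background. By the interval, 12 members were below 1 and 3 above, where all genes gave 20.1% below and 18.7% above. This second call depends on depth, and the members were read more deeply than most genes, with a median of 1020 reads in control against 621 over all 10846 genes. The median log2 ratio was -0.18 over the mevalonate genes, -0.13 over the sterol genes, -0.07 over the fatty acid genes and 0.02 over the regulators, beside -0.01 over all 10846 genes. Of the 17 mevalonate and sterol genes 15 had a ratio under 1, against 51.9% of all genes. Intervals lay below 1 for 7 of these 17, beside 20.1% of all genes, and included 1 for the other 10.

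HU plus gold nanocages against HU asked what the nanocages add. Sterol genes were again slightly lower, whereas mevalonate genes and regulators were near equal. Fdft1 was the 1 member at least 1.2-fold lower with nanocages and none was 1.2-fold higher, beside 4.47% and 5.22% of all genes. By the interval 5 members were below 1 and 2 above, beside 7.78% and 8.35% of all genes. Of those 5, 4 were sterol genes (Fdft1, Lss, Nsdhl and Sqle) and 1 was Fasn, and the 2 above were Acaca and Stard4. The median log2 ratio was -0.09 over the sterol genes, -0.00454 over the mevalonate genes, -0.02 over the fatty acid genes and 0.000478 over the regulators, beside 0.00417 over all genes. Of the 10 sterol genes 9 had a ratio under 1, against 48.2% of all genes. The regulator median changed sign under other scalings.

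HU plus gold nanocages against control gave the largest differences of the sterol genes. The control library is shared with the comparison of HU with control, so these values are not independent of it. Of the 31 members 9 were at least 1.2-fold lower and 1, Scap, was 1.2-fold higher, beside 12.0% and 13.9% of all genes. The 9 were 3 mevalonate genes (Hmgcs1, Mvk and Mvd) and 6 sterol genes (Fdft1, Sqle, Lss, Msmo1, Nsdhl and Sc5d). By the interval 17 members were below 1 and 3 above, beside 20.1% and 19.6% of all genes. All 10 sterol genes had a ratio under 1, against 50.8% of all genes, and 8 of the 10 had an interval below 1. For Hsd17b7, at 0.999-fold, the ratio passed 1 under another scaling. The median log2 ratio was -0.29 over the sterol genes, -0.18 over the mevalonate genes, -0.12 over the fatty acid genes and -0.00392 over the regulators, beside -0.00418 over all genes. Restricting the background to 9547 protein-coding genes, a choice made after the data were seen, left 10.3% at least 1.2-fold lower and 11.8% higher in this comparison, 2.34% lower and 3.02% higher with nanocages over HU, and 10.1% lower and 10.9% higher in HU over control. Intervals below 1 then made up 21.7%, 8.11% and 21.8% of genes in the same order, and intervals above 1 made up 21%, 8.84% and 20.0%.

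**Figure D2:**
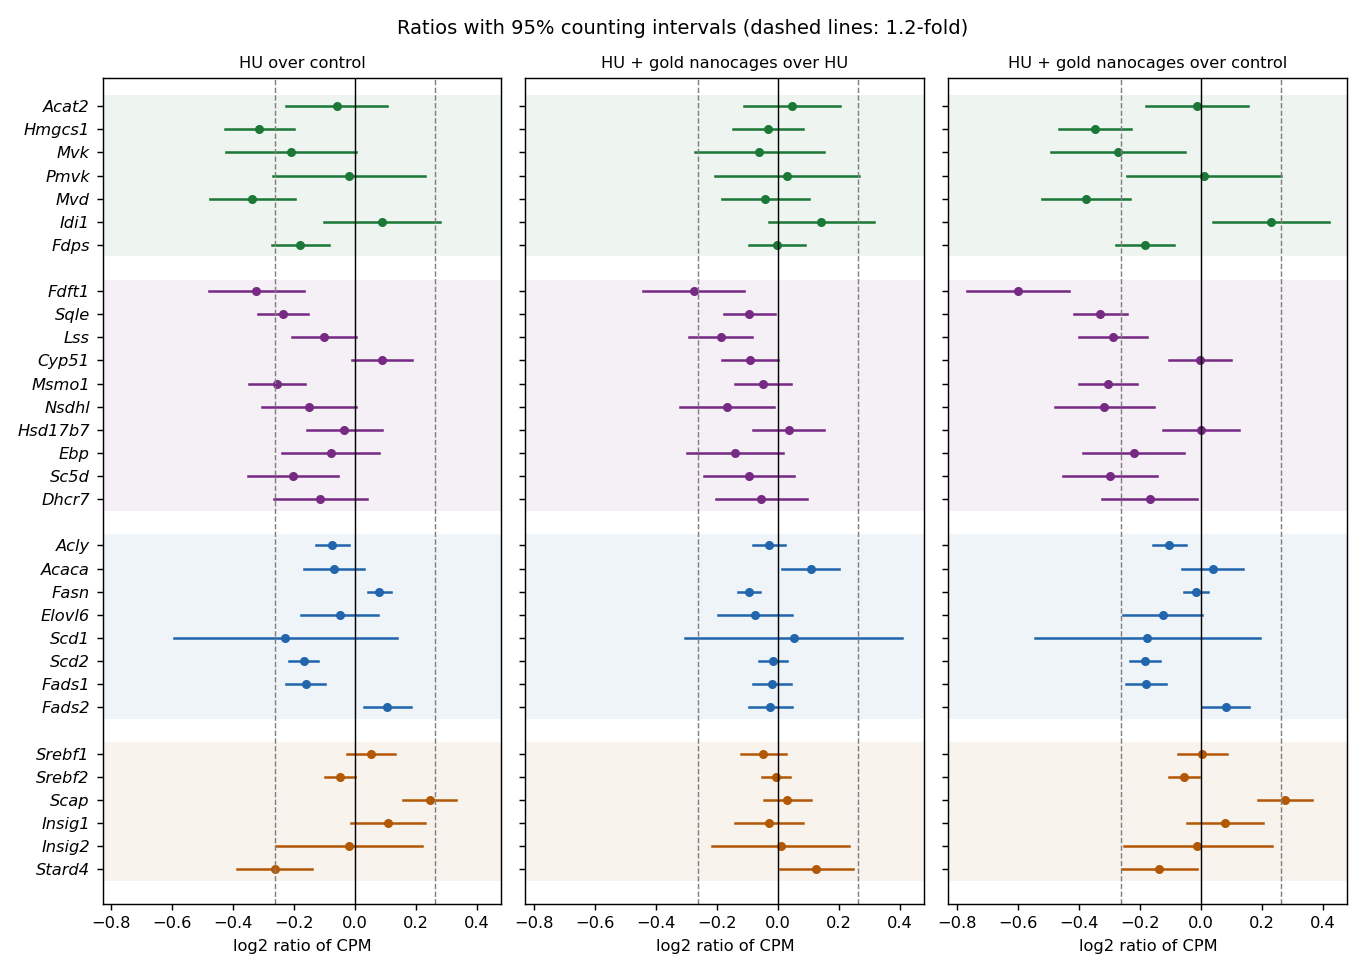
Log2 ratio of CPM of each member (points) with its 95% counting interval (bars) for the 3 pairs of libraries, and dashed lines at 1.2-fold. Sterol genes lie left of 0 in most rows of each panel, whereas Srebf1, Srebf2 and Insig2 lie near 0. Insig1 lies slightly right of 0 in the panels against control.

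**Figure D3:**
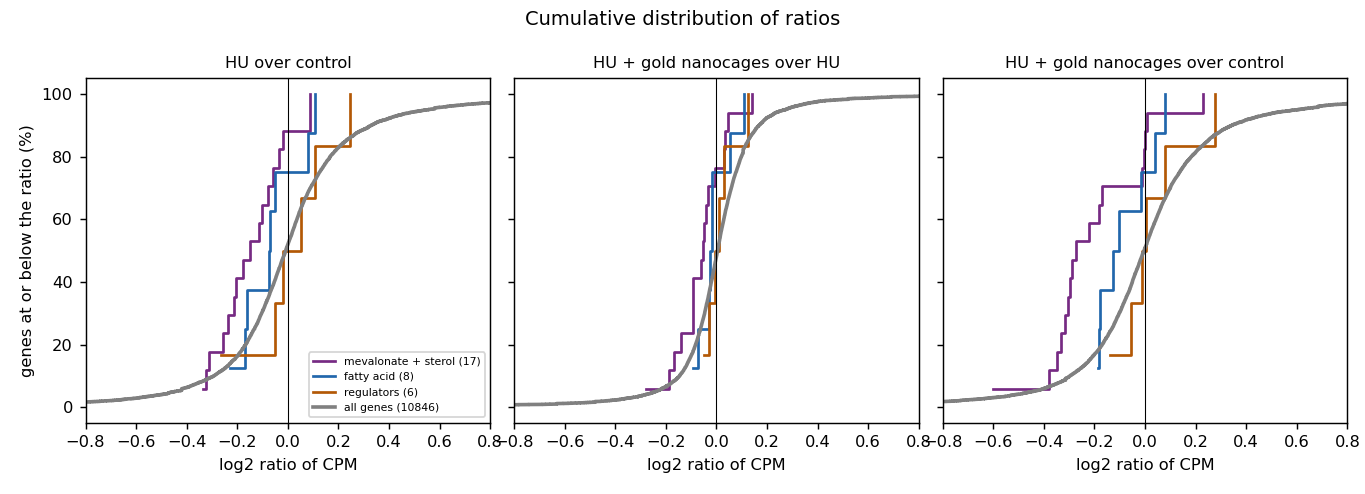
Cumulative share of genes (vertical axis, %) by log2 ratio of CPM for the 17 mevalonate and sterol genes, 8 fatty acid genes, 6 regulators and all 10846 genes with a mean of at least 1 FPKM. The curve of the mevalonate and sterol genes lies mostly to the left of all genes, with medians of -0.15, -0.05 and -0.27 from the left panel to the right.

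The mevalonate pathway turns acetyl-CoA into farnesyl diphosphate, the precursor of sterols and of the lipid anchors of many proteins. Hmgcs1, which makes HMG-CoA, was at 19.46 FPKM in HU plus gold nanocages, 19.92 FPKM in HU and 24.76 FPKM in control. Mvd, the diphosphomevalonate decarboxylase, was at 23.6, 24.29 and 30.68 FPKM in the same libraries. Both were lower in each treated library and close to equal between the treated libraries. Hmgcs1 was 1.24-fold lower in HU than in control (interval 1.15 to 1.35) and Mvd 1.26-fold lower (1.15 to 1.39), whereas their ratios with nanocages over HU were 0.977 (0.902 to 1.06) and 0.972 (0.881 to 1.07). In GENCODE M21, on mm10, Hmgcs1 shares 557 exon bases (12.1% of its exons) with the antisense gene Gm48342. Gm48342 was not among the genes counted. The M21 exons of Hmgcs1 are longer in total than the 3233 bases given as its size with the counts. Whether reads of the shared bases entered its value is not known.

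Fdps, which makes farnesyl diphosphate, showed the same order with a smaller step, at 23.5, 23.58 and 26.7 FPKM in HU plus gold nanocages, HU and control. It was 1.13-fold lower in HU than in control (1.06 to 1.21). Fdps shares 1124 exon bases (26.7% of its exons) with Gm43738 on the same strand, which had 1, 0 and 0 reads in HU plus gold nanocages, HU and control, so how reads of the shared bases were counted bears on the level of Fdps. Mvk, the mevalonate kinase, was at 7.02, 7.32 and 8.48 FPKM, and its interval for HU over control reached 1 (0.864-fold, 0.745 to 1.002). Idi1, the isopentenyl diphosphate isomerase, went the other way and was highest with nanocages, at 8.62, 7.81 and 7.35 FPKM. With nanocages it was 1.17-fold higher than in control (1.03 to 1.34), while its intervals for HU over control (0.931 to 1.21) and for nanocages over HU (0.979 to 1.24) included 1. Idi1 shares 323 exon bases with Gm48574 on the opposite strand, which was not among the genes counted. Pmvk, the phosphomevalonate kinase, at 9.02 to 9.21 FPKM, and Acat2, an acetyl-CoA acetyltransferase, at 13.33 to 13.9 FPKM, had intervals that included 1 in all 3 comparisons.

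The sterol genes make squalene and carry it to cholesterol. Fdft1, the squalene synthase that commits farnesyl diphosphate to sterols, was at 10.07 FPKM in HU plus gold nanocages, 12.2 FPKM in HU and 15.28 FPKM in control. The level was lowest with the combined treatment, intermediate in HU and highest in control. It was 1.25-fold lower in HU than in control (1.12 to 1.39), 1.21-fold lower with nanocages than in HU (1.08 to 1.36) and 1.52-fold lower with nanocages than in control (1.35 to 1.70). In GENCODE M21 Fdft1 lies on chromosome 14 at 63145150 to 63179578 and shares 774 exon bases with the abundant cathepsin gene Ctsb on the opposite strand. These are 18.3% of its M21 exons, which are longer in total than the 2860 bases given as its size with the counts. Whether the counted gene held the shared bases is not known. Ctsb had 23998, 26023 and 20822 reads in HU plus gold nanocages, HU and control, against 537, 700 and 655 for Fdft1. With no strand setting given for the counting, the value of Fdft1 is uncertain. Ctsb itself had a ratio of 0.992 (0.975 to 1.01) with nanocages over HU and 0.934 (0.917 to 0.951) for HU over control.

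Sqle, the squalene epoxidase and a slow step of the pathway, was at 20.97, 22.38 and 26.37 FPKM in HU plus gold nanocages, HU and control. It was 1.18-fold lower in HU than in control (1.11 to 1.25) and 1.07-fold lower with nanocages than in HU (1.01 to 1.13). Lss, which folds squalene epoxide into lanosterol, had a larger step between the treated libraries, at 6.74, 7.68 and 8.23 FPKM. It was 1.14-fold lower with nanocages than in HU (1.06 to 1.23) and 1.07-fold lower in HU than in control (0.997 to 1.15), an interval that included 1. Lss shares 381 exon bases with 4930483K19Rik on the opposite strand, which had 4, 4 and 6 reads in HU plus gold nanocages, HU and control.

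The enzymes that remove the methyl groups of lanosterol gave differing values. Msmo1, the methylsterol monooxygenase, was at 15.84, 16.38 and 19.55 FPKM in HU plus gold nanocages, HU and control, 1.19-fold lower in HU than in control (1.12 to 1.27). Nsdhl, a dehydrogenase of the same steps, was at 11.9, 13.35 and 14.82 FPKM and was 1.12-fold lower with nanocages than in HU (1.01 to 1.25). Cyp51, the lanosterol demethylase, was instead highest in HU, at 21.92, 23.35 and 21.97 FPKM, and its intervals included 1 in all 3 comparisons. Hsd17b7, the ketoreductase of these steps, was at 12.54, 12.24 and 12.55 FPKM, with intervals that included 1 throughout. Cyp51 shares 166 exon bases with Akap9 on the opposite strand, which had 1986, 2083 and 1521 reads in HU plus gold nanocages, HU and control.

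The last steps move and remove double bonds. Sc5d, the sterol desaturase, was at 16.1, 17.2 and 19.8 FPKM in HU plus gold nanocages, HU and control, and was 1.15-fold lower in HU than in control (1.04 to 1.28). Ebp, the sterol isomerase, was at 14.35, 15.82 and 16.72 FPKM, and Dhcr7, which makes cholesterol from 7-dehydrocholesterol, at 10.02, 10.41 and 11.27 FPKM. For Ebp and Dhcr7 the interval lay below 1 when nanocages were set against control (1.17-fold lower, 1.04 to 1.31, and 1.12-fold lower, 1.01 to 1.25) and included 1 in the other comparisons. By CPM, 8 of the 10 sterol genes were lowest with nanocages, intermediate in HU and highest in control, the order of 21.5% of all 10846 genes. The same order held for 4 of 7 mevalonate genes, 4 of 8 fatty acid genes and 1 of 6 regulators, or 17 of the 31 members (54.8%). The same HU library stands in both steps of that order. Of the 8 sterol genes in that order, only Fdft1 and Sqle had intervals apart from 1 in both steps.

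**Figure D4:**
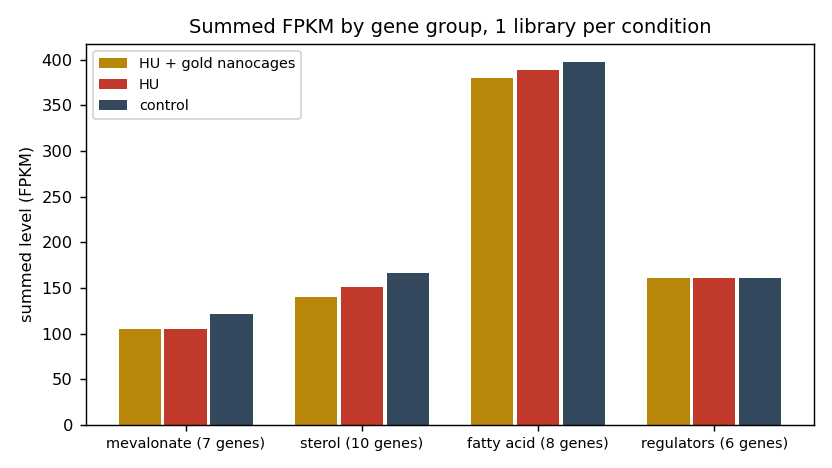
Summed level (FPKM, axis from 0) of the genes of each group in HU plus gold nanocages, HU and control, left to right, with 1 library per condition. The sterol sum was 140.45, 151.01 and 166.56 FPKM, whereas the sum of the regulators and Stard4 was 160.77, 161.18 and 160.56 FPKM.

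Summed over its genes, the mevalonate pathway stood at 105.18 FPKM in HU plus gold nanocages, 105.27 FPKM in HU and 121.02 FPKM in control. The mevalonate sums of the treated libraries were nearly the same, while the sterol sum, shown in the bars of summed level, had a further step with nanocages. The fatty acid sum was 379.64, 388.71 and 397.29 FPKM in HU plus gold nanocages, HU and control.

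The fatty acid genes start with Acly, which makes cytosolic acetyl-CoA from citrate, at 58.93, 60.13 and 63.35 FPKM in HU plus gold nanocages, HU and control. Acly was 1.05-fold lower in HU than in control (1.02 to 1.09). Fasn, the fatty acid synthase, was at 63.63, 67.94 and 64.32 FPKM and so was highest in HU. With 11684, 13421 and 9496 reads it was the most deeply read member, and it was 1.06-fold higher in HU than in control (1.03 to 1.08) and 1.07-fold lower with nanocages than in HU (1.04 to 1.09). With nanocages over control its ratio was 0.989 (0.963 to 1.02). Acaca, the acetyl-CoA carboxylase that feeds Fasn, differed the other way and was 1.08-fold higher with nanocages than in HU (1.01 to 1.15), at 5.88, 5.46 and 5.73 FPKM. Elovl6, the elongase of palmitate, was at 8.64, 9.1 and 9.43 FPKM, with intervals that included 1.

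The desaturase genes divided. Scd2, which puts the double bond into stearate, was 1.12-fold lower in HU than in control (1.09 to 1.16), and Fads1, the delta-5 desaturase, also 1.12-fold lower (1.07 to 1.17), at 61.43, 62.26 and 69.66 FPKM in HU plus gold nanocages, HU and control. Fads2 was 1.08-fold higher in HU than in control (1.02 to 1.13). None of the desaturases had an interval apart from 1 with nanocages over HU. Fads1 and Fads2 are neighbours on chromosome 19, and Fads2 stood 1.80-fold, 1.81-fold and 1.5-fold above Fads1 per exon length in HU plus gold nanocages, HU and control. The ratio of Scd1 for HU over control, 0.853 (0.663 to 1.10), was too thinly read to be told from 1.

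The regulators had median log2 ratios near 0 in all 3 comparisons. Their single ratios for HU over control still ranged from 0.833 (Stard4) to 1.18 (Scap), a wider range than that of the fatty acid genes (0.853 to 1.08). Srebf1, which encodes SREBP1, was at 26.46, 27.36 and 26.38 FPKM in HU plus gold nanocages, HU and control, and its intervals included 1 in all 3 comparisons. Srebf1 shares 109 exon bases with Rai1 on the opposite strand, which was at 10.78, 10.91 and 9.1 FPKM. Srebf2 was 1.03-fold lower in HU than in control (1.001 to 1.07). Insig1, itself a target of SREBP and hence a common readout of its activity, was at 21.35, 21.79 and 20.23 FPKM, with a ratio of 1.08 for HU over control (0.99 to 1.17), so it did not share the lower values of the sterol genes. Insig2, the other retention protein, was at 4.9, 4.87 and 4.94 FPKM.

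Scap, the escort of the SREBPs, was higher in both treated libraries, at 19.03 FPKM in HU plus gold nanocages, 18.63 FPKM in HU and 15.72 FPKM in control. It was 1.18-fold higher in HU than in control (1.12 to 1.26), the largest ratio upward of the 31 genes in that comparison, and 1.21-fold higher with nanocages than in control (1.14 to 1.29). The interval for nanocages over HU included 1 (1.02-fold, 0.968 to 1.08). Scap shares 985 exon bases (13.2% of its exons) with 5830462I19Rik on the opposite strand, which had 26, 26 and 13 reads in HU plus gold nanocages, HU and control, and the part of those reads in the value of Scap was not tested. Stard4, a carrier of cholesterol between membranes and a known SREBP target, was lowest in HU, at 11.07, 10.15 and 12.18 FPKM. It was 1.2003-fold lower in HU than in control (1.10 to 1.31) and 1.09-fold higher with nanocages than in HU (1.004 to 1.19), so the one gene of this group apart from 1 between the treated libraries differed in the opposite direction to most sterol genes.

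Of 25 other genes of the pathway, 22 had a mean of at least 1 FPKM. In HU against control 2 of the 22 were at least 1.2-fold higher and 2 lower, with 6 intervals below 1 and 4 above. All genes gave 13.1% higher and 11.6% lower, with 20.1% of intervals below 1 and 18.7% above. With nanocages over HU none of the 22 was 1.2-fold apart, 2 intervals lay below 1 and none above, beside 5.22% of all genes higher, 4.47% lower, 7.78% of intervals below 1 and 8.35% above. The largest difference was in Lpin1, a phosphatidate phosphatase of triglyceride synthesis, at 4.98, 5.23 and 1.2 FPKM in HU plus gold nanocages, HU and control, or 532, 600 and 103 reads. Lpin1 was 4.35-fold higher in HU than in control (3.53 to 5.42) and the same within counting error in both treated libraries (0.954-fold, 0.847 to 1.07). Me1, the malic enzyme that supplies NADPH for fatty acid synthesis, was 1.2025-fold higher in HU than in control (1.07 to 1.36). Me1 thus lay at the edge of the 1.2-fold call. Rdh11, a retinol dehydrogenase, was 1.29-fold lower in HU than in control (1.16 to 1.43), at 10.15, 10.14 and 13.05 FPKM in HU plus gold nanocages, HU and control. Lbr, the sterol reductase of the nuclear envelope, was 1.22-fold lower with nanocages than in control (1.15 to 1.29). With nanocages over control 1 of the 22 was at least 1.2-fold higher and 3 lower, beside 13.9% and 12.0% of all genes. Intervals there lay below 1 for 7 and above 1 for 2, beside 20.1% and 19.6% of all genes. The median log2 ratio of the 22 was -0.07 for HU over control, -0.03 for nanocages over HU and -0.08 for nanocages over control. Over all genes the medians were -0.01, 0.00417 and -0.00418 in the same order.

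SREBPs act at promoters together with the factors NF-Y and Sp1. Promoters of some members that lay low in both treated libraries are therefore shown beside that of Scap, which lay high. Mvk, Lss and Nsdhl were also at least 1.2-fold lower with nanocages than in control. Their promoters held NF-Y and Sp1 boxes and are not printed. Further members with a promoter had ratios under 1 in both treated libraries against control by smaller amounts. Of these, Ebp, Dhcr7, Hsd17b7, Acly, Srebf2 and Insig2 held both boxes among their promoters. Acat2 held an Sp1 box without an NF-Y box, and Elovl6 held neither. The RefSeq table (GRCm38.p6, 250 bases before to 50 after each start) matched 24 of the 31 members, with 32 promoters, and had no entry for Fdps, Fdft1, Sqle, Scd1, Scd2, Fads1 and Stard4. Both strands were searched for the sterol element TCACNCCAC (GTGGNGTGA on the other strand), the E-box CACGTG, the NF-Y box CCAAT and the Sp1 box GGGCGG, and capitals mark every match. In the 5 promoters printed no match overlapped a match of another motif. They are Hmgcs1 (chr13:119690101-119690400, plus strand), Mvd (chr8:122443373-122443672, minus strand), Msmo1 (chr8:64733529-64733828, minus strand), Sc5d (chr9:42264251-42264550, minus strand) and the downstream start of Scap (chr9:110333106-110333405, plus strand).
Hmgcs1: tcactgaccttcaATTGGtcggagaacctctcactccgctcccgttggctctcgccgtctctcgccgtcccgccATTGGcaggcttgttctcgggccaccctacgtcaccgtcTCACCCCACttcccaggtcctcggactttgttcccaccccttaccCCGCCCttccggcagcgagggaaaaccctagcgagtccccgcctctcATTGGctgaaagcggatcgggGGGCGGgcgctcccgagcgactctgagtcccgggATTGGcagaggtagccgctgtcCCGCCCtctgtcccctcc
Mvd: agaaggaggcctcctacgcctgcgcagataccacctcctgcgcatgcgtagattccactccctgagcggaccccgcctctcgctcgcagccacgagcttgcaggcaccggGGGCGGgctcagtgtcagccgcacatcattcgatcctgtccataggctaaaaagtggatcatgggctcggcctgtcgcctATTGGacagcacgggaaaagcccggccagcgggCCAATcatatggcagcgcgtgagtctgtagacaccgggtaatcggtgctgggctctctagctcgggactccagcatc
Msmo1: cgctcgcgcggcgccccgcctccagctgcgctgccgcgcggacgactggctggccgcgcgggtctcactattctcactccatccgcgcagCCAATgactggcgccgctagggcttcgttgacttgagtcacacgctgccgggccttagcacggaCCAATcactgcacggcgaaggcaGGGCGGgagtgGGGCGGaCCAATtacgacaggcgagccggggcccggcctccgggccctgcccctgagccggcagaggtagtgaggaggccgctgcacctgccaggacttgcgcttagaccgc
Sc5d: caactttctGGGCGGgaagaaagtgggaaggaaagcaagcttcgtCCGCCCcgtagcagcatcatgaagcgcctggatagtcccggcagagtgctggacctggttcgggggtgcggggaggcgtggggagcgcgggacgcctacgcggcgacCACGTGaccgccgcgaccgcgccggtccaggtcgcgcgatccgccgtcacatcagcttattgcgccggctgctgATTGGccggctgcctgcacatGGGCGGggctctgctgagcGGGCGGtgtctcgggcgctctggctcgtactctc
Scap: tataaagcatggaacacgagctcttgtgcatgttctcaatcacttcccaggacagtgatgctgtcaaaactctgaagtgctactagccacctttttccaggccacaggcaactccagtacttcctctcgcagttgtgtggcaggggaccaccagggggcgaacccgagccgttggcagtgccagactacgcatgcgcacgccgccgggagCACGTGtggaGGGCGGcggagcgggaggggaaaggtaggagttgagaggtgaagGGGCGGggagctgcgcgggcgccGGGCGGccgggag

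Hmgcs1 was the only member whose promoter held the sterol element as searched, 137 bases before the start, together with 4 NF-Y boxes and 3 Sp1 boxes. Msmo1 had 3 NF-Y boxes and 2 Sp1 boxes, and Mvd had 2 NF-Y boxes and 1 Sp1 box. Sc5d had 1 E-box, 1 NF-Y box and 4 Sp1 boxes. The downstream Scap promoter held 1 E-box and 3 Sp1 boxes, and the upstream one, which overlaps it, held 1 E-box and 1 Sp1 box, with no NF-Y box in either. Over the 32 member promoters 20 held an NF-Y box (62.5%, against 37.4% of all 32851 promoters), 24 an Sp1 box (75%, against 35.7%), 6 an E-box (18.8%, against 7.15%) and 1 the sterol element (3.12%, against 1.24%). Among 21263 promoters of protein-coding genes the shares were 38.2%, 46.2%, 7.84% and 1.19% in the same order. The overlapping Scap promoters share 1 E-box and 1 Sp1 box, so these sites were counted in both. By member, 5 of the 24 with a promoter held an E-box and 20 an Sp1 box. NF-Y boxes also lay in promoters of members with ratios above 1 for HU over control, namely Idi1, Cyp51, Fasn, Srebf1 and Insig1. All these are matches of letters in one window, with no measure of binding, and their part in the differences was not tested.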

How the data were processed

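RNA of 3 libraries, 1 per condition, was sequenced with paired ends. The authors deposited 1 table with whole-number read counts per gene, which are not normalized. The FPKM values that the authors deposited were recomputed from count, gene size and library sum, and matched within rounding in 100% of genes. A further column, an other type of value, gives the exonic gene size in bases per the file headers. The build mm10 and the tools HISAT2 2.0.1, SAMtools 0.1.18, HTSeq 0.6.1, DESeq, cutadapt and bcl2fastq are named per the submitters' processing notes. Their settings, the annotation release and the strand mode of counting are not given in these sources.

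CPM were computed from the counts and the summed count of each library, where 1 read stood for 0.0536, 0.0499 and 0.0667 CPM in HU plus gold nanocages, HU and control. Intervals are exact conditional binomial (Clopper-Pearson) 95% intervals, computed with scipy 1.17.1 and checked on simulated counts. With 1 library per condition the intervals cover counting error only. Reads carry no molecular identifiers, so copies of 1 molecule were not told apart, and the intervals may be too narrow. The background is every gene with at least 1 FPKM on average over the libraries, with a symbol represented by its identifier with the most reads. Coordinates and exon overlaps came from GENCODE M21. A fold of 1.2 was used because small differences were known beforehand: the members and lists were chosen with earlier results of these data known. All 31 members are given; of the other genes of the pathway, those 1.2-fold apart with an interval excluding 1 were to be named, and some of these are not reported here. Alternatives were edgeR 4.0.16 TMM factors, DESeq2 1.42.0 size factors, leaving out the 50 most abundant genes from the library sum, pseudocounts of 1 and 0.1 FPKM, other filters on low values, a fold of 1.5 and the counting interval as the call.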

Additional observations from a re-analysis of the deposited data

How the results depend on the processing

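The 15 group medians moved by less than the counting error of their members under all 8 alternatives. The sign of a median changed only for the regulators: with nanocages over HU their median was -0.00392 with TMM, -0.00467 with DESeq2 size factors, -0.00015 with a pseudocount of 1 FPKM and -0.00763 at a mean FPKM of at least 5, and with nanocages over control it was 0.00413 at that filter. All 93 ratios of single members stayed within their intervals under the 3 other scalings and both pseudocounts. Counts of members depended on the call. At 1.5-fold, 0 members were lower in HU than in control, 0 with nanocages than in HU and 1 with nanocages than in control, and 0 were higher in the last. With the counting interval as the call, 12 were lower and 3 higher in HU than in control, 5 lower and 2 higher with nanocages than in HU, and 17 lower and 3 higher with nanocages than in control. With a pseudocount of 1 FPKM, 0 were 1.2-fold lower with nanocages than in HU, 7 lower and 0 higher with nanocages than in control, and 3 lower in HU than in control. The member lost in HU over control was Stard4, and the count there was also 3 with TMM, without the 50 most abundant genes and with a pseudocount of 0.1 FPKM. Shares of all genes at 1.5-fold, with a pseudocount or under the other scalings were not computed. Counts of members under these settings thus have no background beside them. No paired analysis was possible because each group is 1 library, and no library could be left out. Depth limits Scd1, Pmvk and Insig2 most, at 120 to 339 reads.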

Other observations

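Ratios between related members within a library were steady for some pairs. Insig1 stood 4.36-fold, 4.47-fold and 4.10-fold above Insig2 per exon length in HU plus gold nanocages, HU and control, and Srebf2 stood 2.95-fold, 2.86-fold and 3.07-fold above Srebf1. Fasn stood 10.8-fold, 12.4-fold and 11.2-fold above Acaca in the same libraries, highest in HU. Scap relative to Insig1, the escort relative to a retention protein, was at 0.891, 0.855 and 0.777 per exon length, lowest in control. The close relatives Scd3 and Scd4 had at most 7 reads in any library, and Idi2, a relative of Idi1, had at most 3.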
